A study of Mus musculus with 32 samples.

Results

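Collagen genes were taken as every gene whose symbol in the count tables is Col, a number, a and 1 digit, which found 44 of the 26331 named genes. RNA was counted per gene by RNA-seq in 32 libraries of mouse embryonic forebrain, with dorsal telencephalon dissected at E12.5, in embryonic days, and cortex at E15.5. Libraries of embryos labelled Kat6b-/- (Kat6b knockout) and of their wild type were C57BL/6, 3 of each genotype at the earlier age and 5 at the later. Libraries of Tg(Kat6b) embryos, which overexpress Kat6b, and of their wild type were on a mixed FVBxBALB/c background, with 4 per genotype and age, because the transgenic mice were not viable on an inbred one. All 32 libraries were of whole dissected tissue, and the labels name neither the promoter of the transgene nor the deleted part of Kat6b. No collagen gene passed the test between genotypes, at either age or in either background. Of all genes, 1 and 0 passed for the labelled knockout and 2 and 2 for Tg(Kat6b), at E12.5 and E15.5. Between the ages most collagen genes passed, as did 46.3% to 56.8% of all genes. Of the 42 collagen genes that could be tested in all 4 age comparisons, 21 (50%) were lower at E15.5 in each, against 15.9% of all genes. A further 2 (4.76%) were higher in each, against 19.3%. The 21 became 12 without replicate 3 of the labelled knockout at E12.5, and 2 with the mesenchymal marker level of each library in the fit. The summed levels of those markers did not overlap between the ages. Shares of all genes in these refits are not given here, so neither fall can be read as particular to collagen genes.

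Collagens are trimeric proteins of the extracellular matrix, and each gene encodes 1 alpha chain. In the embryonic forebrain they are chiefly products of the meninges, of blood vessels and of the cells that attach to the basement membranes of both, and type IV collagen is the scaffold of the pial and the vascular basement membrane. Fibrillar collagens build fibrils, the FACIT class decorates their surface, type VI forms beaded filaments, and the multiplexins carry sugar chains in basement membranes. KAT6B is a histone acetyltransferase of the MYST family. The study compared loss and gain of Kat6b; the question here is which collagen chains differed with genotype, with age and between libraries of 1 group.

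Total counts of named genes ran from 10383066 to 49508669 per library. Levels below are in CPM, read counts scaled to library totals that were adjusted by the trimmed mean of M values (TMM), or in RPKM, the same per kilobase of the deposited gene length, which lets genes be compared. Kat6b, counted over the whole gene, stood at 152 to 193 CPM in C57BL/6 wild type at E12.5 and 121 to 190.1 in the labelled knockout, and at 151 to 191 against 153 to 190.5 at E15.5, so its total did not separate those groups. That total checks nothing where the deleted part is not known. In Tg(Kat6b), Kat6b was 3.09-fold higher at E12.5 and 3.62-fold higher at E15.5. Replicates 5 of C57BL/6 at the later age have count columns headed as E12.5, and 1 of them, the labelled knockout, is given as dorsal telencephalon. Both were used as E15.5, and the age result without them is given below. Labelled knockout replicates 3 and 4 at E15.5 stood apart from their group, with 1068 and 1062 CPM of collagen RNA in all against 610.2 to 715 in the other 3, and values without them are given where they matter. Replicate 3 also had the lowest TMM factor of all libraries, 0.802, which raises its CPM, whereas that of replicate 4 was 1.03. Sequencing batch 1 held all FVBxBALB/c and batch 2 all C57BL/6 libraries, which leaves batch and background inseparable: they cannot be told apart here. The 10 cortical neuron markers all passed as higher at E15.5 in each of the 4 age comparisons, and none of the 12 endothelial markers was at 0 in any library.

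Promoters are shown for 4 genes on which the age comparison turns. The 250 bases upstream of Col3a1 (chr1:45311288-45311537, plus strand) and Col1a2 (chr6:4505368-4505617, plus strand) are shown as those of the genes whose median fall over the 4 age comparisons was the largest, and those of Col19a1 (chr1:24587438-24587687, minus strand) and Col28a1 (chr6:8192618-8192867, minus strand) as those of the 2 genes that rose in all 4 age comparisons. They are RefSeq sequences of GRCm38.p6, printed 5′ to 3′ on the strand of the gene, and the start is the one the promoter table gives. For Col19a1 and Col28a1 that start lies inside the RefSeq gene, so their windows are also inside it: the upstream edge of the window is 235 bp from the outer 5′ end of Col19a1 and 842 bp from that of Col28a1. Capitals mark every match on either strand to TATAAA, which is the core of a TATA box, to CCAAT, or to GGGCGG, which is known as the GC box.
Col3a1: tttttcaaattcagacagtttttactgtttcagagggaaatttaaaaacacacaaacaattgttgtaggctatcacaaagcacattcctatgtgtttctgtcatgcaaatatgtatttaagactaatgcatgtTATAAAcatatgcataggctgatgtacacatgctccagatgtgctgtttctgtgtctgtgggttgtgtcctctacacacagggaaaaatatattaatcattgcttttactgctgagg
Col1a2: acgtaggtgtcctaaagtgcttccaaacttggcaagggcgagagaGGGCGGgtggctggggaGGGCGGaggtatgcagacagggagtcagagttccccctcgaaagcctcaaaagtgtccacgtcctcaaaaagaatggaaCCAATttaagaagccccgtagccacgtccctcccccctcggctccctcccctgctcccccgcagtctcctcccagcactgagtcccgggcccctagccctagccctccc
Col19a1: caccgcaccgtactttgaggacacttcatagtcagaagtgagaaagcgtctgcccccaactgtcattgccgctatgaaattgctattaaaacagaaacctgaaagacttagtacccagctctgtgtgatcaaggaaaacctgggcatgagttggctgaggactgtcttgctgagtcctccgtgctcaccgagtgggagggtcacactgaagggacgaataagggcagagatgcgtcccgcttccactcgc
Col28a1: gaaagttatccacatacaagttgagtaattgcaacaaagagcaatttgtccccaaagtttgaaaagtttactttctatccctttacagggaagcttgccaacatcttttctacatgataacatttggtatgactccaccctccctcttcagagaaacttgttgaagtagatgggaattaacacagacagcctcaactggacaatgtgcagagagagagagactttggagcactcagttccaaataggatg

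Col3a1 held 1 TATAAA, Col1a2 held 1 CCAAT and 2 GGGCGG, and Col19a1 and Col28a1 held none of the 3 motifs in this window. GC content was 35.2% in Col3a1, 62.0% in Col1a2, 52.0% in Col19a1 and 40.4% in Col28a1. Of the 44 collagen genes, 35 matched a RefSeq promoter. Among these, TATAAA was in 5 (14.3%) against 13% of 27025 promoters of the same length, CCAAT in 12 (34.3%) against 34.5%, and GGGCGG in 21 (60%) against 32.9%. The 27025 promoters were not filtered by gene type, and no test was made on these shares. A match describes letters and not a bound site.

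Collagen messages are also known as targets of the miR-29 family, small RNAs that pair with the 3′ untranslated region through their seed. The 3 mature mouse sequences, from the RefSeq table, share 1 seed, bases 2 to 8, in capitals.
mmu-miR-29a-3p: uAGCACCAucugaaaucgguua
mmu-miR-29b-3p: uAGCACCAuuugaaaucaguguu
mmu-miR-29c-3p: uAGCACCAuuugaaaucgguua
The match to that seed is TGGTGCT on the strand of the message. The sites below, 28 bases each from GENCODE M21 transcripts with the match in capitals, are shown for 4 of the 10 most abundant collagen genes that hold the match.
Col1a1: gaaggaatttcTGGTGCTatagaagctg
Col3a1: aaatgtctcaaTGGTGCTataataaata
Col4a1: ccgtcacaacaTGGTGCTactccccccc
Col5a2: tcttttaatgaTGGTGCTaaaattattt
Of the 44 collagen genes, 25 (56.8%) held the match in their longest 3′ untranslated region, against 13% of 20981 protein-coding genes, and 11 (25%) held it more than once, against 2.02%. Median lengths of these regions were 1032.5 bp in collagen genes and 954 bp over all. The median of the age difference, itself a median over the age comparisons, was -1.61 on the log2 scale in the 25 genes with a match and -0.81 in the 18 tested genes without, with overlapping ranges of -5.09 to 1.00 and -4.94 to 2.63. Small RNAs were not measured, and no test was made on these shares.

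Levels per length spanned more than 3 orders of magnitude on the RPKM scale. Over the means of the 8 groups, Col4a1, a core chain of all basement membranes, was the highest at 40.2 RPKM, followed by Col3a1 at 34.6, Col4a2 at 23.1, Col2a1 at 22, Col1a2 at 16, Col18a1 at 15.6, Col1a1 at 14.9, Col5a2 at 13.7, Col26a1 at 10.8 and Col11a1 at 7.55. The lowest was Col10a1, a collagen of hypertrophic cartilage, at 0.0207 RPKM, with 0 to 11 reads per library. It was tested in no comparison, and Col17a1, a collagen of epithelial attachment, was tested in C57BL/6 alone, so the tests cover 43 and 42 of the 44 genes in the 2 backgrounds.

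Col4a1 measured 95.3, 45.8 and 52.5 RPKM in the 3 E12.5 C57BL/6 wild-type libraries and 62.3, 66.8 and 34 in the labelled knockout ones. At E15.5 it measured 27.9, 28.8, 32.7, 26.2 and 27.7 RPKM in wild type and 27.9, 22.5, 40.9, 40.9 and 25.2 in the labelled knockout. In FVBxBALB/c it measured 40.8, 44.8, 65.4 and 77.4 RPKM in E12.5 wild type and 36.7, 44.6, 43.2 and 44.3 in Tg(Kat6b), against 19.4, 22.3, 21.3 and 21.9 in wild type and 23.9, 24.8, 22.7 and 16.5 in Tg(Kat6b) at E15.5. Every wild-type and Tg(Kat6b) library at E12.5 was above every library of the same genotype and background at E15.5, whereas labelled knockout replicate 4 at E12.5 lay below replicates 3 and 4 at E15.5. Groups of 1 age overlapped between genotypes.

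The order of the genes was not the same at both ages. Col3a1, a fibrillar chain that is also the ligand of the receptor GPR56 at the pial surface, measured 112, 35.8 and 49.2 RPKM in E12.5 C57BL/6 wild type and 79.0, 144 and 26.1 in the labelled knockout. It measured 1.86, 1.39, 5.93, 1.08 and 1.10 RPKM in E15.5 wild type and 1.74, 0.796, 12.4, 11.8 and 1.12 in the labelled knockout. In FVBxBALB/c the values were 27.6, 35.8, 83.1 and 146 RPKM in E12.5 wild type, 19.3, 38.9, 42.5 and 80.8 in E12.5 Tg(Kat6b), 0.880, 1.07, 1.24 and 0.892 in E15.5 wild type and 0.958, 1.44, 0.916 and 1.08 in E15.5 Tg(Kat6b). No E15.5 library reached the lowest E12.5 library of its own background and genotype. The E12.5 groups were spread widely, with labelled knockout replicate 3 and FVBxBALB/c wild-type replicate 4 the highest. At E15.5 the C57BL/6 wild-type replicate 3 and labelled knockout replicates 3 and 4 stood above the rest of their groups.

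**Figure D1:**
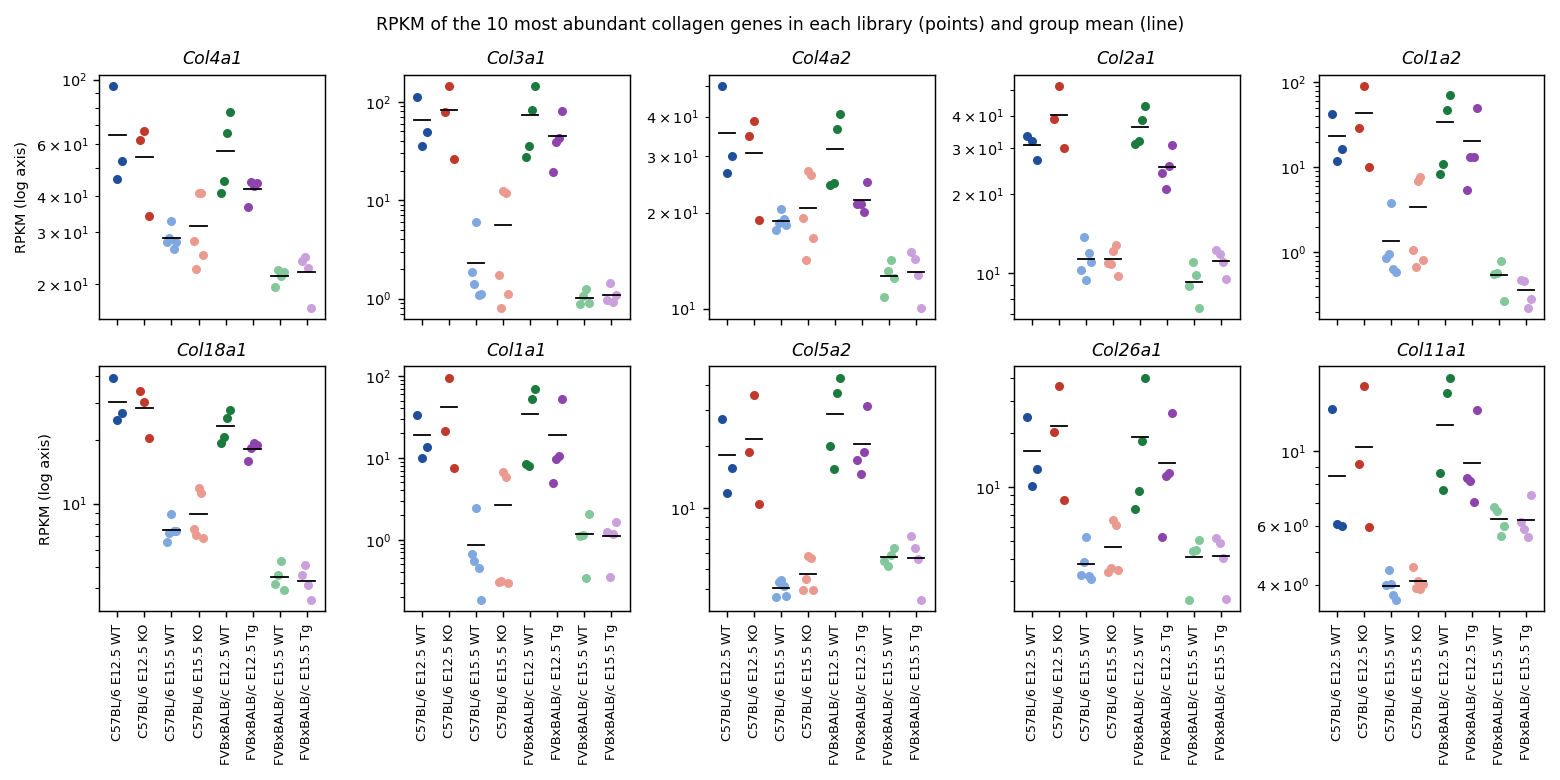
RPKM of the 10 most abundant collagen genes (1 panel each, log vertical axes with their own scales) in each of the 32 libraries, shown as points by group, with group means as lines. Col3a1, Col1a1 and Col1a2 spread widely within groups and lie far lower at E15.5, while Col4a1 and Col4a2 lie 16.5 to 95.3 and 10.02 to 49.98 RPKM in all libraries.

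Age was compared within each background and genotype, as E15.5 cortex against E12.5 dorsal telencephalon. Age and the dissected region cannot be told apart in it, and in bulk tissue fewer cells of a type and less RNA per cell cannot be told apart either. The 4 age comparisons share no library. In C57BL/6 wild type 30 of 43 collagen genes passed at an adjusted p below 0.05 (56.8% of all genes tested), 6 higher and 24 lower, where 28.6% of all genes were higher and 28.2% lower. In the labelled knockout 34 of 43 passed (56.4% of all genes), 6 higher and 28 lower (29.4% and 27% of all genes). In FVBxBALB/c wild type 31 of 42 passed (50.1% of all genes), 3 higher and 28 lower (25.1% each of all genes). In Tg(Kat6b) 28 of 42 passed (46.3% of all genes), 3 higher and 25 lower (23.8% and 22.5%). The collagen genes stood above 0 in 11 of 43, 9 of 43, 8 of 42 and 8 of 42, where 48.7%, 49.4%, 48.0% and 47.6% of all genes did. The share that passed was above the background in each comparison, and the direction also differed from it. The median log2 difference of the collagen genes was -1.11, -1.31, -1.48 and -1.36, against -0.02, -0.01, -0.03 and -0.03 over all genes. No test was made on these shares or medians.

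Of the 42 collagen genes tested in all 4 age comparisons, 21 (50%) were lower in each, against 15.9% of the 15448 genes tested in all 4. Only Col19a1 and Col28a1 (4.76%) were higher in each, against 19.3%. A further 9 were lower in 1 to 3 of the comparisons and 5 higher in 1 to 3, none passed in opposite directions, and 5 passed in none. By class, genes lower in all 4 were 8 of 11 fibrillar, 2 of 6 type IV, 4 of 6 type VI, 1 of 2 hexagonal network, 0 of 9 FACIT, 2 of 3 transmembrane, both multiplexins and 2 of 3 others. Without labelled knockout replicate 3 at E12.5, 12 of the 21 stayed lower in all 4. The call in the labelled knockout was lost for Col1a1, Col1a2, Col4a1, Col6a1, Col6a2, Col6a3, Col6a6, Col8a2 and Col13a1, and the 2 higher genes kept theirs. Of the other genes lower in the labelled knockout, Col4a6, Col8a1, Col9a1, Col11a2, Col16a1 and Col17a1 also lost the call in that refit. Of the other higher ones, Col4a4 and Col22a1 lost theirs, and Col9a3 gained one. Without both C57BL/6 replicates 5 at E15.5, 17 of the 21 stayed lower in all 4. Those lost were Col4a1, Col6a6, Col8a2 and Col13a1, and the 2 higher genes again stayed so. Without FVBxBALB/c wild-type replicate 4 at E12.5, Col8a1, Col8a2, Col9a1 and Col9a2 lost the call as lower in that genotype and background. Col4a4 lost its call as higher there. The shares of all genes in these refits are not given here.

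**Figure D2:**
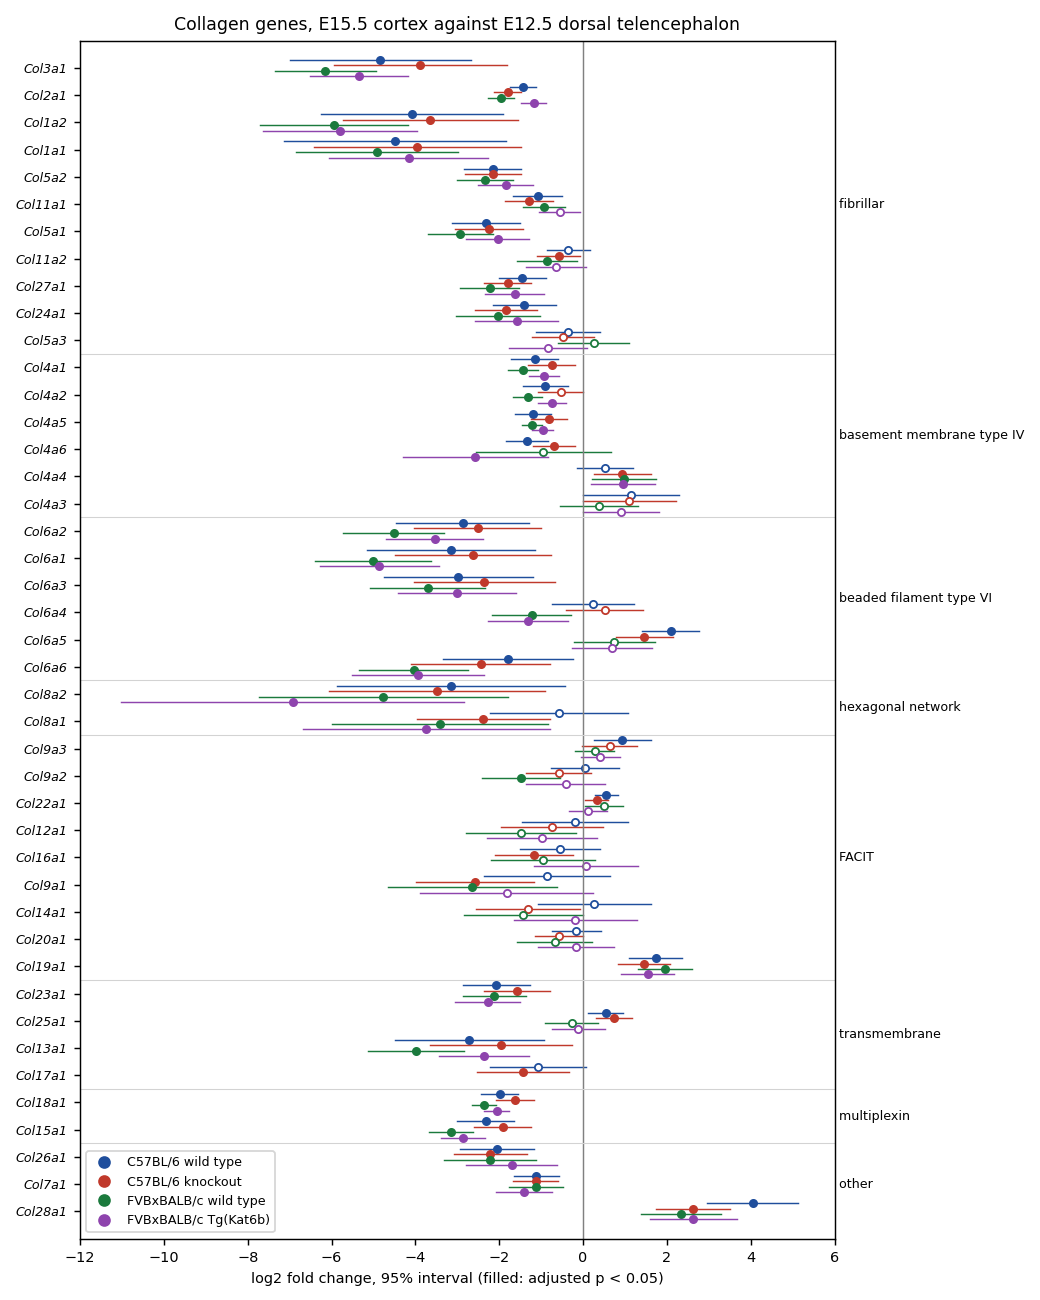
Log2 fold change of each tested collagen gene between E15.5 and E12.5 in the 4 groups of libraries (colours), with the 95% interval as a line and filled points for an adjusted p below 0.05, ordered by class. Most points of the fibrillar, type VI and multiplexin genes lie left of 0, Col19a1 and Col28a1 lie right of it in all 4, and Col8a2 has the widest intervals.

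Among fibrillar collagens, the genes of types I and III fell the most. Col3a1 changed by -4.84 (SE 0.99), -3.88 (SE 0.95), -6.15 (SE 0.57) and -5.35 (SE 0.55) on the log2 scale in C57BL/6 wild type, the labelled knockout, FVBxBALB/c wild type and Tg(Kat6b), by edgeR's quasi-likelihood test with Benjamini-Hochberg adjusted p of 0.0011, 0.0035, 3.0e-07 and 1.2e-06. Its type I partners moved alike: Col1a2 by -4.08, -3.64, -5.94 and -5.79 and Col1a1 by -4.49, -3.95, -4.92 and -4.16, all past the threshold. Their spread was wide. Col1a1 measured 33.6, 9.90 and 13.5 RPKM in E12.5 C57BL/6 wild type and 21.1, 95.2 and 7.61 in the labelled knockout, against 0.663, 0.549, 2.46, 0.448 and 0.183 in wild type and 0.301, 0.318, 6.64, 5.87 and 0.297 in the labelled knockout at E15.5. In FVBxBALB/c, Col1a1 measured 8.49, 8.00, 52.0 and 68.6 RPKM in E12.5 wild type and 4.91, 9.80, 10.5 and 51.5 in Tg(Kat6b), against 1.10, 1.15, 0.338 and 2.09 in wild type and 1.23, 0.347, 1.19 and 1.66 in Tg(Kat6b) at E15.5. The E12.5 groups each held libraries that differed by 3 times or more, and the ages did not overlap in any of the 4 comparisons.

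Col2a1, the fibrillar chain of cartilage that the early neuroepithelium also makes, was far more even between libraries of a group. It measured 33.5, 32 and 27.2 RPKM in E12.5 C57BL/6 wild type and 38.7, 52.0 and 30.1 in the labelled knockout, and 10.3, 13.7, 9.40, 12 and 11.1 in wild type and 10.9, 10.8, 12.2, 12.8 and 9.73 in the labelled knockout at E15.5. In FVBxBALB/c it measured 31.2, 31.9, 38.5 and 43.6 RPKM in E12.5 wild type, 24.1, 20.9, 25.6 and 30.8 in E12.5 Tg(Kat6b), 8.93, 11, 9.87 and 7.34 in E15.5 wild type and 12.2, 11.8, 11 and 9.51 in E15.5 Tg(Kat6b). Every E12.5 library was above every E15.5 library. The log2 differences were -1.43 (SE 0.15), -1.80 (SE 0.15), -1.96 (SE 0.15) and -1.18 (SE 0.14), with adjusted p of 9.7e-07, 7.7e-08, 3.0e-08 and 5.6e-06. Col5a1 and Col5a2, which nucleate type I fibrils, also fell in all 4, Col5a1 with log2 differences of -2.32, -2.24, -2.93 and -2.04 and Col5a2 of -2.15, -2.15, -2.34 and -1.85. The minor fibrillar chains Col24a1 and Col27a1 fell in all 4, at -1.40, -1.83, -2.03 and -1.58 and at -1.45, -1.80, -2.23 and -1.63. Col11a1, the partner of Col2a1 in cartilage fibrils, changed by -1.08, -1.29, -0.94 and -0.56 and missed the threshold in Tg(Kat6b), with an adjusted p of 0.06. Col11a2 passed in the labelled knockout (-0.58) and FVBxBALB/c wild type (-0.86), and Col5a3 in none. Without labelled knockout replicate 3 at E12.5, Col11a2 did not pass in that genotype.

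The type IV genes split. Col4a1 and Col4a2 lie head to head on chromosome 8 with 85 bp of overlap, so reads there cannot be assigned if counting ignored strand, which is not stated. Col4a1 fell in all 4 comparisons, with differences of -1.15 (SE 0.26), -0.75 (SE 0.26), -1.43 (SE 0.17) and -0.94 (SE 0.17). Col4a2 changed by -0.90, -0.54, -1.32 and -0.74 and missed the threshold in the labelled knockout, with an adjusted p of 0.082. Col4a5 fell in all 4, at -1.19, -0.82, -1.22 and -0.97, and its neighbour on the X chromosome, Col4a6, changed by -1.34, -0.69, -0.95 and -2.58 and missed the threshold in FVBxBALB/c wild type. Col4a6 had 3, 101, 3 and 1 reads in the 4 E15.5 Tg(Kat6b) libraries, and replicate 2 alone was within the range of the 55, 109, 34 and 37 of wild type. Without that replicate the difference was -5.63, and without replicate 1 it was -2.24 and did not pass. In E12.5 wild type, replicate 2 had 27 reads of Col4a6 and the other 3 had 139, 459 and 580. Col4a4, a chain of the kidney and inner ear, was higher by 0.93, 0.97 and 0.95 in the labelled knockout and both FVBxBALB/c comparisons, and stood at 0.52 in C57BL/6 wild type, where it did not pass. Its level was low, 0.144 RPKM over the groups against 40.2 for Col4a1. Col4a3, which overlaps Col4a4 by 114 bp, passed in none.

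Type VI chains form the beaded filaments around mesenchymal cells. Col6a1, Col6a2 and Col6a3, the chains of the main trimer, fell in all 4 comparisons, though none of the 3 passed in the labelled knockout without its replicate 3 at E12.5. With all libraries Col6a1 stood at -3.16, -2.63, -5.00 and -4.86, Col6a2 at -2.87, -2.52, -4.52 and -3.54 and Col6a3 at -2.97, -2.36, -3.71 and -3.01. Col6a2, the most abundant, measured 9.65, 4.33 and 4.96 RPKM in E12.5 C57BL/6 wild type and 8.02, 17.5 and 3.18 in the labelled knockout, against 0.502, 0.748, 1.85, 0.669 and 0.476 in wild type and 0.511, 0.629, 3.28, 3.33 and 0.588 in the labelled knockout at E15.5. In FVBxBALB/c, Col6a2 measured 3.77, 4.04, 9.29 and 14.1 RPKM in E12.5 wild type and 2.18, 4.24, 3.91 and 11.2 in Tg(Kat6b), against 0.210, 0.396, 0.464 and 0.239 in wild type and 0.368, 0.439, 0.564 and 0.467 in Tg(Kat6b) at E15.5. In the labelled knockout the E15.5 replicates 3 and 4 were above the lowest E12.5 library, and no other age comparison of Col6a2 overlapped. Col6a6 fell in all 4, at -1.80, -2.44, -4.04 and -3.95, on few reads, 0 to 8 per library at E15.5. The related Col6a4 and Col6a5 lie beside it on chromosome 9 and did otherwise. Col6a5 rose in C57BL/6, by 2.09 and 1.46, and stood at 0.74 and 0.69 in FVBxBALB/c, where it missed the threshold. The difference between the backgrounds was not tested. Col6a4 fell in FVBxBALB/c (-1.23 and -1.32) and stood at 0.23 and 0.51 in C57BL/6, where it did not pass.

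Both multiplexins, basement membrane proteoglycans that yield antiangiogenic fragments, fell in all 4 comparisons. Col18a1 measured 39.4, 24.8 and 26.7 RPKM in E12.5 C57BL/6 wild type and 34, 30.1 and 20.5 in the labelled knockout, against 6.55, 7.23, 8.91, 7.44 and 7.40 in wild type and 7.58, 7.12, 11.9, 11.2 and 6.85 in the labelled knockout at E15.5. In FVBxBALB/c it measured 19.3, 20.6, 25.3 and 27.7 RPKM in E12.5 wild type and 15.9, 18.3, 19.3 and 19 in Tg(Kat6b), against 4.18, 4.58, 5.37 and 3.91 in wild type and 4.6, 5.09, 4.09 and 3.49 in Tg(Kat6b) at E15.5. As with Col2a1, the ages did not overlap anywhere. Col18a1 changed by -1.99 (SE 0.21), -1.62 (SE 0.21), -2.36 (SE 0.14) and -2.06 (SE 0.14), with adjusted p of 1.7e-06, 1.0e-05, 4.3e-09 and 1.7e-08, and Col15a1 by -2.33, -1.92, -3.15 and -2.87.

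Short-chain network collagen Col8a2 fell in all 4 comparisons, at -3.14, -3.48, -4.76 and -6.93, but its libraries were far apart. It measured 43.4, 5.94 and 8.01 CPM in E12.5 C57BL/6 wild type and 33.4, 90.1 and 5.76 in the labelled knockout, and 0.178, 0.204, 6.15, 4.35 and 0.339 in wild type and 7.47, 0.261, 5.21, 5.83 and 0.210 in the labelled knockout at E15.5. In FVBxBALB/c, Col8a2 measured 1.39, 2.35, 30.4 and 75.6 CPM in E12.5 wild type and 1.13, 5.17, 7.04 and 44.8 in Tg(Kat6b), against 0, 0.138, 3.67 and 0.0992 in wild type and 0.0807, 0.109, 0.0809 and 0.193 in Tg(Kat6b) at E15.5. The 6 E15.5 libraries above 3 CPM were the ones with 312 to 572 CPM of Ttr, the transthyretin gene that marks choroid plexus; the other 12 held 0.567 to 10.9 CPM of Ttr and 0 to 0.339 CPM of Col8a2, and the part of choroid plexus in these values was not tested. Col8a1 fell in 3 of the 4, at -2.38, -3.41 and -3.74, and stood at -0.57 in C57BL/6 wild type. Its call was lost in the labelled knockout without replicate 3 at E12.5. In FVBxBALB/c wild type, Col8a1 and Col8a2 both lost the call without replicate 4 at E12.5.

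Of the transmembrane collagens, Col13a1, a collagen of the neuromuscular junction, changed by -2.71, -1.95, -3.98 and -2.36 and Col23a1 by -2.07, -1.57, -2.12 and -2.27, all past the threshold. Col25a1, a neuronal collagen found with amyloid plaques, was higher in C57BL/6 (0.54 and 0.74) and did not pass in FVBxBALB/c (-0.27 and -0.11). Col17a1, tested in C57BL/6 alone, fell in the labelled knockout, at -1.43, and lost that call without replicate 3 at E12.5. Of the rest, Col26a1 changed by -2.05, -2.21, -2.21 and -1.71 and Col7a1, the anchoring fibril of skin, by -1.11, -1.13, -1.12 and -1.40, all past the threshold.

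Col19a1, a FACIT that cortical and hippocampal interneurons make, was 1 of the 2 genes higher in all 4 comparisons. It measured 0.0482, 0.105 and 0.0650 RPKM in E12.5 C57BL/6 wild type and 0.0744, 0.107 and 0.0896 in the labelled knockout, against 0.212, 0.226, 0.224, 0.237 and 0.317 in wild type and 0.344, 0.278, 0.184, 0.153 and 0.248 in the labelled knockout at E15.5. In FVBxBALB/c, Col19a1 measured 0.126, 0.139, 0.139 and 0.0827 RPKM in E12.5 wild type and 0.222, 0.122, 0.0864 and 0.133 in Tg(Kat6b), against 0.511, 0.516, 0.335 and 0.518 in wild type and 0.345, 0.305, 0.422 and 0.587 in Tg(Kat6b) at E15.5. The ages did not overlap in any comparison, on 13 to 128 reads per library. The log2 differences were 1.73 (SE 0.30), 1.45 (SE 0.30), 1.95 (SE 0.30) and 1.54 (SE 0.30), with adjusted p of 1.2e-04, 4.9e-04, 5.1e-05 and 4.9e-04. Col19a1 lies 4944 bp from Col9a1 on chromosome 1, which was lower in 2 of the comparisons and did not pass in the other 2.

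Col28a1, a collagen with von Willebrand domains like type VI, was the other. Its reads were few: 0, 5 and 2 in E12.5 C57BL/6 wild type and 7, 8 and 10 in the labelled knockout, against 6, 43, 39, 20 and 40 in wild type and 51, 23, 31, 50 and 61 in the labelled knockout at E15.5. In FVBxBALB/c, Col28a1 had 8, 8, 14 and 6 reads in E12.5 wild type and 3, 5, 8 and 3 in Tg(Kat6b), against 19, 27, 18 and 14 in wild type and 12, 14, 7 and 19 in Tg(Kat6b) at E15.5. Scaled for depth, the ages did not overlap. The log2 differences were 4.04 (SE 0.52), 2.62 (SE 0.42), 2.34 (SE 0.45) and 2.63 (SE 0.49), and the first rests on the 0, 5 and 2 reads at E12.5.

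The other FACIT genes shared no direction. Col22a1, a collagen of tissue junctions, was higher in C57BL/6 (0.56 and 0.32) and did not pass in FVBxBALB/c (0.50 and 0.13). Of the type IX chains, which coat type II fibrils, Col9a3 was higher in C57BL/6 wild type by 0.94, Col9a1 lower in the labelled knockout (-2.57) and FVBxBALB/c wild type (-2.65), and Col9a2 lower in FVBxBALB/c wild type (-1.47). Col9a1 lost the call in the labelled knockout without its replicate 3 at E12.5. Both genes lost the call in FVBxBALB/c wild type without its replicate 4 at E12.5. Col16a1 fell in the labelled knockout, at -1.17, and lost that call without replicate 3 at E12.5. Col12a1 and Col14a1, which bind type I fibrils, and Col20a1 passed in none.

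Genes that make, cut, anchor or bind collagen were read from 5 lists, against 28.2%, 27%, 25.1% and 22.5% of all genes lower and 28.6%, 29.4%, 25.1% and 23.8% higher in the 4 age comparisons. Of 20 genes of synthesis and folding, 9, 13, 11 and 10 were lower at E15.5 in the 4 comparisons, in the order above, and 0, 1, 0 and 1 higher. The collagen chaperone Serpinh1 changed by -1.41, -1.55, -1.54 and -1.41, the lysyl hydroxylase Plod2 by -1.13, -1.14, -1.15 and -1.04, the prolyl hydroxylase P3h2 by -2.02, -2.0, -2.11 and -1.67 and the isomerase Fkbp14 by -1.01, -1.11, -1.07 and -1.04. Of the processing and crosslinking genes, 6 of 13, 7 of 13, 7 of 12 and 6 of 12 were lower and 3, 4, 1 and 2 higher. The crosslinking lysyl oxidases Lox and Loxl2 fell in all 4, at -3.78, -2.83, -4.80 and -3.86 and at -2.21, -2.39, -2.65 and -2.24, whereas Adamts3, a procollagen peptidase that also cuts reelin, rose by 2.01, 2.29, 2.55 and 2.76.

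Of 11 receptor genes, 8, 7, 9 and 7 were lower and 0 higher. The integrin Itga11, which binds type I collagen, changed by -2.79, -2.38, -3.01 and -2.73 and the uptake receptor Mrc2 by -1.70, -1.82, -1.91 and -1.26. Adgrg1, which encodes the Col3a1 receptor GPR56, stood at 0.06, 0.00, -0.12 and 0.05 and passed in none. Of 15 basement membrane partners, 9, 4, 12 and 9 were lower and 3, 2, 2 and 0 higher. Laminin chain Lama1 fell in all 4, at -1.83, -1.47, -2.05 and -1.71, as did Lamb2, at -0.98, -1.11, -1.36 and -0.87. Of 7 proteases and inhibitors, 3, 3, 4 and 3 were lower and 3, 3, 3 and 2 higher. The higher ones held Mmp9, a gelatinase, at 2.39, 2.60, 2.45 and 2.77 and the inhibitor Timp2 at 1.04, 1.11, 0.86 and 0.83.

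Most markers of mesenchyme fell beside the collagens, where 22.5% to 28.2% of all genes were lower. Of the 19 listed genes, none of them a collagen, 13 of 19 and 14 of 19 were lower at E15.5 in the C57BL/6 comparisons and 17 of 18 in each FVBxBALB/c one, with 0 higher and medians of -2.35, -2.37, -2.79 and -2.86. Their summed level was 690.3, 318 and 382 CPM in E12.5 C57BL/6 wild type and 537, 834 and 283 in the labelled knockout, against 87.9 to 137 and 86.6 to 160.5 at E15.5. In FVBxBALB/c it was 273 to 886 CPM in E12.5 wild type and 224 to 634 in Tg(Kat6b), against 71.5 to 101 and 70.5 to 90.3 at E15.5. Twist2 was at 0 in 9 of the 32 libraries, Aldh1a2 in 6 and Slc6a13 in 4. Of 12 endothelial markers 7, 6, 8 and 7 were lower and 2 higher in each comparison.

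All 44 collagen genes together gave 2187 ± 953 CPM (SD, n = 3) in E12.5 C57BL/6 wild type and 691 ± 68.3 (SD, n = 5) at E15.5, 2611 ± 1470.0 and 813 ± 234 in the labelled knockout, 2424 ± 1190.0 and 552 ± 36.3 (SD, n = 4) in FVBxBALB/c wild type, and 1661 ± 621 and 555.5 ± 61.6 in Tg(Kat6b). With the mesenchymal marker level of each library in the fit, 14, 10, 19 and 15 collagen genes passed in place of 30, 34, 31 and 28, of which 4, 3, 15 and 11 were lower, and the medians moved to 0.11, 0.33, -0.43 and -0.26. Only Col2a1 and Col18a1 were then lower in all 4, and no gene was higher in all 4. The summed marker levels of the ages did not overlap, so this fit cannot cleanly part age from marker level in any gene. The share of all genes that passed in it is not given here. The part of mesenchymal cells in the age difference was not tested beyond this fit. Leaving out labelled knockout replicate 3 at E12.5 took the count of that genotype from 34 to 18, of which 13 were lower. That refit held only replicates 1 and 4 of the group, and its share of all genes is not given here either.

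**Figure D3:**
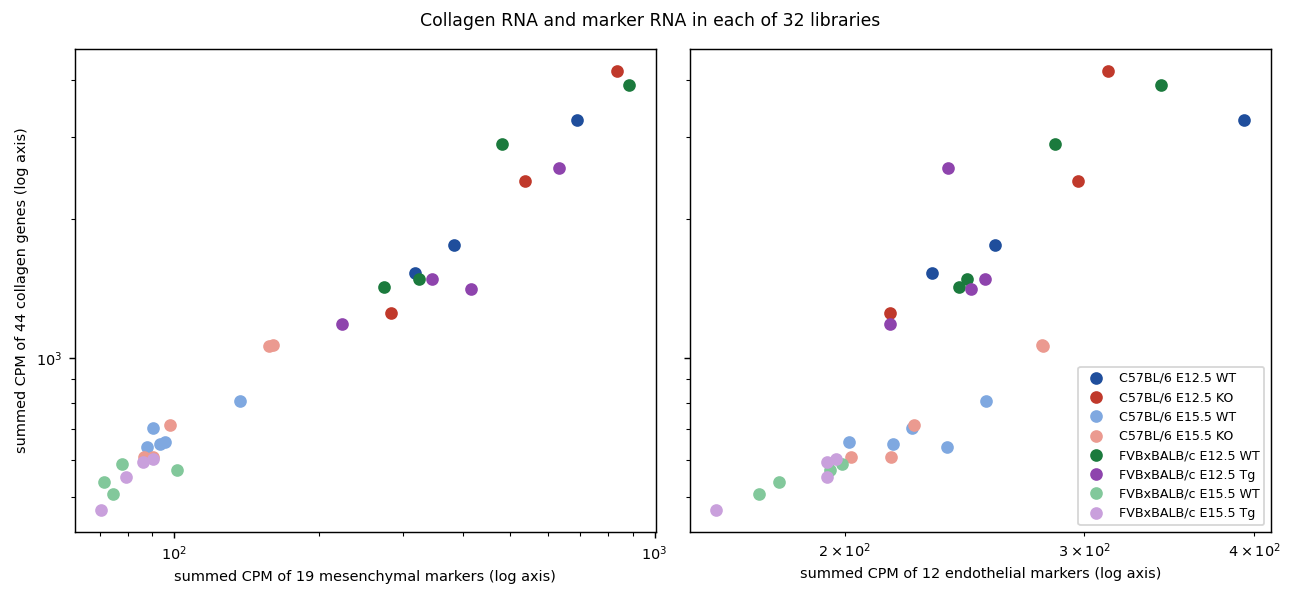
Summed CPM of the 44 collagen genes in each of the 32 libraries (points, coloured by group) against the summed CPM of 19 mesenchymal (left) and 12 endothelial markers (right), all axes logarithmic. The E12.5 libraries spread from 1183 to 4170 CPM of collagen and those of E15.5 from 469 to 1068, and libraries with more mesenchymal marker RNA hold more collagen RNA.

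Collagen genes also differed between libraries of the same group, and that variation was read against the mean log2 level of the markers, centred in each group. On the mesenchymal level, 23 of 43 collagen genes had a slope past the threshold in C57BL/6 (4.44% of all genes), all positive, and 26 of 42 in FVBxBALB/c (20.6% of all genes), 25 positive. A slope of 1 means that a gene's log2 level rose 1 unit per log2 unit of the markers. Those of Col1a1 were 2.37 (SE 0.22) in C57BL/6 and 1.62 (SE 0.37) in FVBxBALB/c, of Col1a2 2.02 (SE 0.12) and 1.69 (SE 0.13), of Col3a1 1.94 (SE 0.19) and 1.14 (SE 0.08), and of Col6a2 1.5 (SE 0.12) and 1.12 (SE 0.10). Col4a1 gave 0.55 (SE 0.07) and 0.34 (SE 0.07). The slope of Col2a1 was 0.20 in C57BL/6, where it missed the threshold, and 0.25 in FVBxBALB/c. Col20a1 in FVBxBALB/c was the 1 negative slope, at -0.62 (SE 0.21). A positive slope in both backgrounds was called in 20 genes: Col1a1, Col1a2, Col3a1, Col5a1, Col5a2 and Col27a1 of the fibrillar class, Col4a1 and Col4a2, Col6a1 to Col6a3, Col8a1, Col9a1, Col9a2, Col14a1, Col16a1, both multiplexins, Col23a1 and Col26a1.

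On the endothelial level, 23 of 43 slopes passed in C57BL/6 (9.78% of all genes), all positive, and 13 of 42 in FVBxBALB/c (17.7% of all genes), 12 positive. Col4a1 gave 1.79 (SE 0.14) and 1.59 (SE 0.23), Col4a2 1.65 (SE 0.18) and 1.38 (SE 0.27), and Col18a1 1.39 (SE 0.16) and 1.15 (SE 0.22). Col19a1 in FVBxBALB/c was negative, at -2.22 (SE 0.60). With both marker levels in 1 fit, the endothelial counts went to 0 and 0 and the mesenchymal ones to 1 and 14. The shares of all genes that passed in that fit are not given here, so the fall cannot be read as particular to collagen genes. Leaving out FVBxBALB/c wild-type replicate 4 at E12.5 took the FVBxBALB/c counts from 26 to 11 and from 13 to 0. The endothelial one was 8 without replicate 1 or 2 of that group, 7 without Tg(Kat6b) replicate 1 and 20 without Tg(Kat6b) replicate 4 at E12.5. Shares of all genes without these replicates are not given here either, so these changes cannot be read as particular to collagen genes. No slope was called for 12 genes: Col5a3, Col11a2, Col4a3, Col4a4, Col6a4, Col6a5, Col7a1, Col9a3, Col17a1, Col22a1, Col25a1 and Col28a1.

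**Figure D4:**
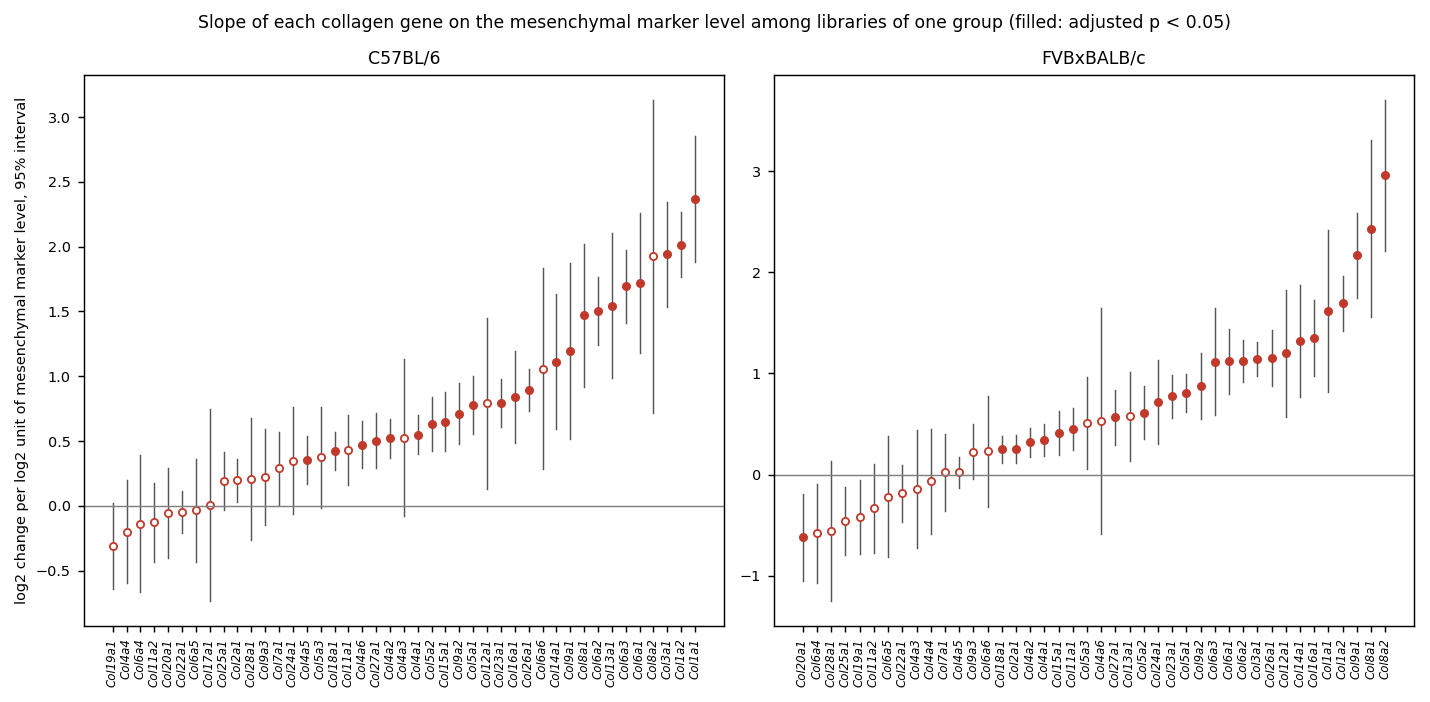
Slope of each collagen gene on the mesenchymal marker level among libraries of the same group, in log2 units of the gene per log2 unit of the markers, with 95% intervals (lines) and filled points for an adjusted p below 0.05, in C57BL/6 (left) and FVBxBALB/c (right). In C57BL/6 Col1a1, Col1a2 and Col3a1 lie at 2.37, 2.02 and 1.94.

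Genotype was compared within background and age. In C57BL/6 at E12.5, edgeR's quasi-likelihood test called 0 of 43 collagen genes between labelled knockout and wild type (0.00620% of all genes), DESeq2 and limma-voom also called 0, and 4 had an unadjusted p under 0.05 (5.22% of all genes). The difference was above 0 in 33 of 43 genes, with a median of 0.36 on the log2 scale, against 46.9% of all genes and a median of -0.01. All 11 fibrillar genes were above 0 and 5 of 6 type IV genes below. The genes with the smallest p were Col28a1 at 1.93 (SE 0.61), Col9a1 at 2.08 (SE 0.75), Col14a1 at 1.74 (SE 0.68), Col2a1 at 0.37 (SE 0.17) and Col9a2 at 0.89 (SE 0.42), each with an adjusted p of 0.88. The groups did not overlap, the labelled knockout being higher, in 3 genes (6.98%, against 2.84% of all genes): Col28a1, whose reads are given above, Col9a2 and Col20a1. With the labelled knockout lower, 0 collagen genes separated the groups, where 4.47% of all genes did. Col9a2 measured 3.63, 3.06 and 3.63 RPKM in wild type and 4.38, 10.8 and 3.95 in the labelled knockout.

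Replicate 3 of the labelled knockout at E12.5 stood apart. It held 834 CPM of mesenchymal markers against 537 and 283 in replicates 1 and 4, and its summed collagen level was 4170 CPM against 2413 and 1250.0. Cartilage and bone markers summed to 19.8 CPM in it and to 2.51 to 4.40 CPM in the other 5 libraries of that comparison. Its Col9a1 stood at 6.09 RPKM and 0.292 to 1.20 in those 5. Without it the median of the collagen genes was -0.17 in place of 0.36, and Col14a1 stood at -0.31 in place of 1.74. With the mesenchymal marker level of each library in the fit, the median was 0.10 and no collagen gene passed. The parts of mesenchymal, cartilage and bone cells in these differences were not tested.

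At E15.5, 0 of 43 collagen genes passed by edgeR, DESeq2 or limma-voom between labelled knockout and wild type (0% of all genes), and 1 had an unadjusted p under 0.05 (2.83% of all genes). The difference was above 0 in 38 of 43, with a median of 0.24, against 53.0% of all genes and a median of 0.01. Col6a4 stood at 1.02 (SE 0.39), Col4a6 at 0.39 (SE 0.21), Col28a1 at 0.51 (SE 0.31), Col6a5 at -0.39 (SE 0.25) and Col23a1 at 0.52 (SE 0.34). The 95% interval of the difference was -0.28 to 0.29 for Col2a1, -0.15 to 0.66 for Col18a1, -0.35 to 0.64 for Col4a1 and -0.60 to 3.18 for Col3a1, so a change of 1 log2 unit would lie outside the interval of the first 3 and inside that of Col3a1. No collagen gene separated the groups in either direction, as 0.341% of all genes did with the labelled knockout higher and 0.478% with it lower. Labelled knockout replicates 3 and 4 held 160.5 and 157 CPM of mesenchymal markers, where their group's other 3 held 86.6 to 98.1. Without these 2 the median was -0.07, and with the mesenchymal level in the fit it was 0.06. The part of mesenchymal cells in these differences was not tested.

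In FVBxBALB/c at E12.5, 0 of 42 collagen genes passed by edgeR, DESeq2 or limma-voom between Tg(Kat6b) and wild type (0.0129% of all genes), and 7 had an unadjusted p under 0.05 (6.68% of all genes). The difference was below 0 in 35 of 42, with a median of -0.48, where 47.4% of all genes were above 0 and their median was -0.01. Of the fibrillar genes 10 of 11 were below 0. Col2a1 stood at -0.52 (SE 0.14), Col4a2 at -0.53 (SE 0.16), Col18a1 at -0.36 (SE 0.13), Col6a6 at -1.18 (SE 0.43) and Col4a1 at -0.43 (SE 0.17), each with an adjusted p of 0.72. All 4 Tg(Kat6b) libraries of Col2a1, at 24.1, 20.9, 25.6 and 30.8 RPKM, lay below all 4 of wild type, at 31.2, 31.9, 38.5 and 43.6. Col6a6 was the other gene that separated the groups this way, 2 of 42 (4.76%, against 1.20% of all genes). With Tg(Kat6b) higher, 0 collagen genes separated the groups, where 1.62% of all genes did. Mesenchymal markers were below 0 in 15 of 18, with a median of -0.36, and all 12 endothelial markers were below 0, with a median of -0.22. With the mesenchymal level in the fit the collagen median was -0.16, and the parts of mesenchymal and endothelial cells were not tested. Without wild-type replicate 4, which held 886 CPM of mesenchymal markers, the collagen median was -0.19.

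At E15.5, 0 of 42 collagen genes passed by edgeR, DESeq2 or limma-voom between Tg(Kat6b) and wild type (0.0129% of all genes), and 0 had an unadjusted p under 0.05 (2.22% of all genes). The difference was above 0 in 17 of 42, with a median of -0.08. The smallest p were those of Col5a3 at -0.96 (SE 0.46), Col7a1 at -0.63 (SE 0.33), Col2a1 at 0.27 (SE 0.14), Col4a6 at -1.27 (SE 0.83) and Col8a2 at -3.11 (SE 2.56), each with an adjusted p of 1. Col8a2 turned to 0.24 without wild-type replicate 3, the library of its group with over 100 CPM of Ttr. Col4a6, with the uneven reads given above, was -4.33 without Tg(Kat6b) replicate 2. Col5a1 was the 1 gene whose groups did not overlap (2.38%, against 1.5% of all genes with Tg(Kat6b) higher), at 1.35, 1.32, 1.15 and 1.39 RPKM in wild type and 1.86, 1.57, 1.59 and 1.37 in Tg(Kat6b). With Tg(Kat6b) lower, 0 collagen genes separated the groups, where 1.05% of all genes did. Intervals were -0.30 to 0.42 for Col4a1, -0.34 to 0.24 for Col18a1 and -2.14 to 1.98 for Col1a1.

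The difference of the genotype effect between the ages was tested as well, and 0 collagen genes passed for the labelled knockout (0% of all genes) or for Tg(Kat6b) (0% of all genes) by edgeR, DESeq2 or limma-voom. At an unadjusted p under 0.05 there were 0 (2.72% of all genes) and 2 (4.04% of all genes). The differences were above 0 in 19 of 43 (54.5% of all genes) and 31 of 42 (52.4% of all genes). Col2a1 in Tg(Kat6b) had the smallest p of those, with a difference of 0.78 (SE 0.20) and an adjusted p of 1. Its effect had been below 0 at E12.5 and above 0 at E15.5, both short of the threshold. No gene of the 5 pathway lists passed in any genotype comparison.

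**Figure D5:**
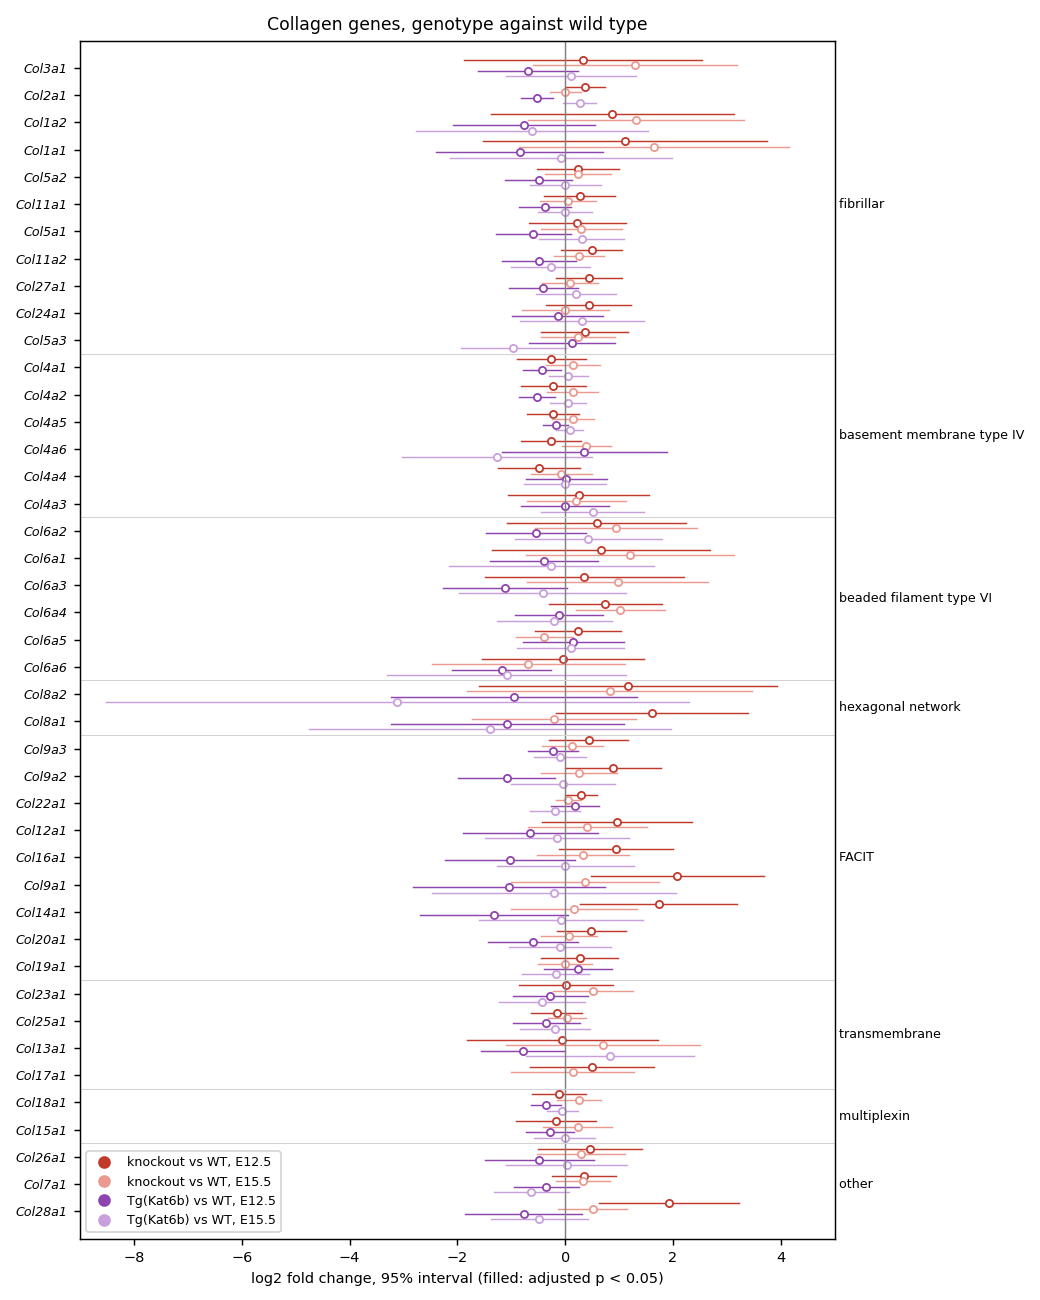
Log2 fold change of each tested collagen gene between genotypes in the 4 genotype comparisons (colours), with 95% intervals, ordered by class. All points are open, since none had an adjusted p below 0.05, and the E12.5 points of the labelled knockout lie mostly right of 0 and those of Tg(Kat6b) mostly left.

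Wild types of the 2 backgrounds were compared in 1 fit of all 32 libraries. At E12.5, 1 of 43 collagen genes differed (12.8% of all genes, 5.59% higher in FVBxBALB/c and 7.19% lower): Col28a1 was higher in FVBxBALB/c by 1.84 (SE 0.61), with an adjusted p of 0.044, on the few reads given above. Col28a1 lost the call without any 1 replicate of either group except FVBxBALB/c replicate 4, and by limma-voom. Its adjusted p ran from 0.012 to 0.14 with 1 replicate of these groups left out and was 0.061 by limma-voom. Without C57BL/6 replicate 1, 2 other collagen genes passed, by limma-voom 1 other did, and without FVBxBALB/c replicate 4 Col28a1 and 2 more did. The next smallest p were those of Col6a6 at 1.74 (SE 0.61) and Col6a4 at 1.27 (SE 0.47), which did not pass. At E15.5, 4 of 43 differed (25.3% of all genes, 13.9% higher in FVBxBALB/c and 11.3% lower). Col18a1 was lower in FVBxBALB/c, at -0.73 (SE 0.18), as were Col15a1, at -1.14 (SE 0.31), and Col4a2, at -0.57 (SE 0.21), with adjusted p of 0.0032, 0.008 and 0.043, and Col19a1 was higher by 0.94 (SE 0.26), with an adjusted p of 0.0097. In the libraries, Col15a1 measured 1.07, 1.19, 1.57, 0.878 and 0.888 RPKM in E15.5 C57BL/6 wild type and 0.387, 0.607, 0.573 and 0.410 in FVBxBALB/c, without overlap. Background and sequencing batch cannot be told apart in either comparison.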

How the data were processed

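RNA was extracted with RNeasy, made into libraries with a TruSeq RNA kit and sequenced as 66 bp paired ends on a NextSeq500, per the labels' protocols. What the authors deposited is raw counts of each gene, made with bcl2fastq and featureCounts on mm10, per the submitters' processing notes. Aligner, annotation, versions and strand setting: not given in the sources used here. Of 27179 entries per library, 848 name no gene. They were left out and held at most 2.002% of a library's reads, in labelled knockout replicate 3 at E15.5. The next highest share was 0.493%, in C57BL/6 wild-type replicate 5 at E15.5.

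Groups came from the labels. The collagen genes and the marker and pathway lists were chosen with earlier results of these data known. Counts were tested with edgeR 4.0.16 in R 4.3.3 (TMM, filterByExpr with a minimum count of 10 and total of 15, robust quasi-likelihood F-test, 1 mean per group) in 1 fit per background with 12 residual degrees of freedom, or over all 32 libraries for the comparison of backgrounds. The fits held 16118, 15556 and 16399 genes, with Benjamini-Hochberg adjustment over all of them and a threshold of 0.05. Standard errors and 95% intervals were worked back from F. CPM and RPKM were computed here, with TMM factors of all 32 libraries and the deposited gene lengths. Marker levels were means of log2(CPM + 0.5), centred in each group for the slopes. Alternatives used DESeq2 1.42.0 and limma 3.58.1. The fits were tested on simulated data.

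Named are up to 15 collagen genes per comparison past the threshold (or the 5 with the smallest p), the 10 most abundant, their trimer partners, up to 4 genes per pathway list and comparison, and Kat6b. Others that are named complete a class.

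Litter and embryo numbers in the labels show that C57BL/6 libraries are separate embryos, and that same-numbered genotypes share a litter, with replicates 3 and 4 at E12.5 from 1 litter. Correlations of same-numbered deviations from the group means were -0.361 to 0.392 at E12.5 and -0.112 to 0.389 at E15.5. For FVBxBALB/c nothing in the labels says that libraries came from separate embryos, so p-values there measure only the spread between these samples, which may be technical.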

Additional observations from a re-analysis of the deposited data

Results flagged for a closer look

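In groups of 4 to 10 libraries, the highest and the lowest value of the most abundant collagen genes were compared with the rest of their group by Dixon's ratio, which marks about 1 in 20 groups by chance. It marked 4 of 66. In C57BL/6 wild type at E15.5, replicate 3 stood above its group in Col3a1 at 33.0 CPM, Col1a2 at 19.7 CPM and Col1a1 at 11.6 CPM. Its mesenchymal markers summed to 137 CPM, against 87.9 to 95.7 CPM in the other 4. In Tg(Kat6b) at E12.5, replicate 4 stood above its group in Col1a1 at 243 CPM, and its mesenchymal markers summed to 634 CPM, against 224 to 414 CPM in the other 3.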

How the results depend on the processing

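No collagen gene passed in the 4 genotype comparisons or their 2 interactions under any of the 119 alternatives run, among them other scaling, no low-count filter, DESeq2, limma-voom and each left-out replicate. Same-numbered C57BL/6 genotypes share a litter, and with the replicate block 0 collagen genes passed in each genotype comparison. The block changed no genotype call of a collagen gene, and gave 28, 27, 31 and 28 in the age comparisons, where numbers share no litter. In FVBxBALB/c, samples share only a number: correlations were -0.116 to 0.604 and -0.141 to 0.0847, and 1 of 4 wild-type libraries correlated best with its own number at each age. The age counts of 30, 34, 31 and 28 (C57BL/6 wild type, labelled knockout, FVBxBALB/c wild type, Tg(Kat6b)) became 14, 10, 19 and 15 with the mesenchymal level in the fit, and ran 23 to 29, 18 to 35, 26 to 31 and 25 to 29 without 1 replicate. The background count at E12.5 was 1 and became 0 without a filter, 6 with the mesenchymal level, 0 without both replicates 5, 0 without labelled knockout replicates 3 and 4 at E15.5, and 0 to 3 without 1 replicate (2 genes other than Col28a1 without C57BL/6 wild-type replicate 1, 3 without FVBxBALB/c replicate 4). At E15.5 the count of 4 became 8 with the mesenchymal level and 2 by limma-voom, and 3 to 4 without 1 replicate. With both marker levels in 1 fit, the mesenchymal slope counts of 23 and 26 became 1 and 14, and the endothelial ones of 23 and 13 became 0 and 0. Counts under the alternatives in this section are given without the share of all genes beside them. Limma-voom called 27 endothelial slopes in FVBxBALB/c. Without 1 replicate the slope counts ran 19 to 24 and 11 to 28 (mesenchymal), and 16 to 23 and 0 to 20 (endothelial). Of 7169 alternatives for single genes, 6845 kept direction and side of the threshold, 296 lost the call, 8 gained it and 20 reversed. With both marker levels, the reversed slopes were, on the endothelial level in C57BL/6, Adgrg6 -0.48, Lox -0.18, Col6a2 -0.19 and Col1a1 -1.55, in FVBxBALB/c Pcolce -1.33, Loxl2 -0.28 and Col5a1 -0.0189, and on the mesenchymal level in C57BL/6 Timp3 -0.0486. With the mesenchymal level in the fit, age differences reversed for Col23a1 at 0.16, Mmp2 at 0.32 and Pcolce at 0.12 in the labelled knockout, Mmp2 at 0.54 and Ddr2 at 1.03 in Tg(Kat6b), and Mmp2 at 0.78 in FVBxBALB/c wild type. Without 1 replicate, Col14a1 in the labelled knockout at E12.5 ran -0.31 to 2.23, its interaction -2.06 to 0.48 and that of Col9a1 -2.70 to 0.0516, each reversed without labelled knockout replicate 3 at E12.5. The interaction of Timp3 ran -0.15 to 0.42, reversed without C57BL/6 wild-type replicate 1 at E12.5, and Col8a2 in Tg(Kat6b) at E15.5 ran -3.59 to 0.24, reversed without wild-type replicate 3. Lox in the labelled knockout at E15.5 was -0.11 without replicates 3 and 4. The cause of these changes was not tested. Depth limits the genes with few reads, Col28a1, Col6a6, Col4a4 and Col10a1 among them.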

Other observations

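Single libraries held genes of tissues that border the dissected forebrain, given here as values. In Tg(Kat6b) replicate 4 at E12.5, the keratins Krt5 and Krt14 of surface epithelium stood at 17.9 and 7.18 CPM, beside 3.42 CPM of Col17a1. Labelled knockout replicate 3 at E12.5 held 23.7 CPM of Col9a1 and 13.3 CPM of Col14a1, beside 1.12 CPM of Acan, the cartilage proteoglycan aggrecan. FVBxBALB/c wild-type replicate 4 at E12.5 held 19.03 CPM of Col9a1, 10.9 CPM of Col14a1 and 1.66 CPM of Acan.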
